A study of Homo sapiens with 6 samples.

Results

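Ephrins and Eph receptors, semaphorins with their plexin and neuropilin receptors, SLIT ligands with ROBO receptors, and netrins with UNC5 receptors are cell-surface and secreted cues that steer growing axons and migrating cells. The genes were chosen by symbol from the platform annotation, as EPHA, EPHB, EFNA, EFNB, SLIT, ROBO or NTN followed by a number, or as symbols that begin with SEMA3 to SEMA7, PLXN, NRP1, NRP2 or UNC5. This gave 70 genes of the 19775 that a probe set names alone, read by 171 of the 54675 probe sets on the array. Of the 70, UNC50, UNC5CL and UNC5B-AS1 share only the first letters with the netrin receptors and were kept apart in the counts by family.

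HEK293 is a human embryonic kidney cell line. Cells were transfected for 72 h either with a BAHD1 siRNA (3 arrays) or with a control siRNA (3 arrays), both delivered with the same lipid reagent, and the labels give no other difference between the groups. The arrays are labelled biological replicates, 1 array per sample, and the expression values are scaled fluorescence intensities, called signals below. BAHD1 encodes a chromatin protein known for a part in heterochromatin and gene silencing, and its own probe set had signals of 36.6, 46.8 and 41.2 in BAHD1 siRNA arrays, against 62.9, 55.7 and 46.7 in control siRNA arrays. That is 76.0% of the control level on the log2(signal + 1) scale, with overlapping groups (exact two-sided permutation p = 0.2, limma adjusted p = 0.251). The adjusted p is over all 27458 probe sets tested, not for BAHD1 alone. The log2 difference was -0.40, and -0.51 to -0.30 with 1 array left out. BAHD1 signals were thus lower on average, but the difference did not pass. A single probe set of low signal cannot size the depletion the labels name.

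Guidance cues act in pairs of ligand and receptor. Ephrins of the A type are tethered to the membrane by a lipid anchor and those of the B type span it, and both bind Eph receptor tyrosine kinases on a neighbouring cell. Class 3 semaphorins are secreted, and most act through neuropilins, which bind them, and plexins, which signal. SLIT proteins bind ROBO receptors, and netrins repel cells through UNC5 receptors. In the kidney, SLIT2 and ROBO2 are known from mice to restrict where the ureteric bud forms.

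Signals of different probe sets cannot be ranked against each other as RNA levels. The samples are bulk cultures, in which fewer cells that express a gene and less RNA per cell cannot be told apart. Array medians ran from 15.8 to 19.5, and dim probe sets tended upwards and bright ones downwards: of tested probe sets ordered by mean signal, 60.9% of the dimmest 25% were higher in BAHD1 siRNA arrays, against 42.1% of the brightest 25%. In BAHD1 siRNA arrays each of the 24 probe sets for bacterial poly-A spike-in RNAs read above its control siRNA arrays without overlap (median 1.49-fold), and the 3′ to 5′ signal ratio of GAPDH was 0.956 to 0.966 in BAHD1 siRNA arrays, against 0.926 to 0.955 in control siRNA arrays. Their part in the results was not tested. Of 10 genes listed as expressed in HEK293, 8 were measured. The neurofilament genes NEFL and NEFM (log2 fold change 0.37 and 0.58) and VIM (-0.32) passed the less strict fit described below. They are 37.5% of the 8, against 5.52% of all genes read by their brightest probe set. PAX2 (0.65), INA (0.31), KRT8 (0.09), KRT18 (-0.02) and CDH2 (0.08) did not pass, and LHX1 was too dim to be tested. Of 11 markers on the array of blood, endothelial, liver, muscle and glial cells, only PECAM1 and HBB were bright enough to be tested, with signals from 13.8 to 32.4 on their brightest probe sets.

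SLIT2, SEMA3C and EFNA2 changed past the threshold in one of the fits used. The axon repellent gene SLIT2 fell to 71.9% of its control siRNA level on the brightest of its 3 tested probe sets alone. The secreted semaphorin gene SEMA3C fell to 67.2% on the brighter of its 2. EFNA2, which encodes ephrin-A2, rose 1.47-fold, a call that was lost with any 1 array left out. A probe set was tested when its signal was above 17.9, the median of all, in at least 3 of the 6 arrays, which kept 90 of the 171 probe sets and 52 of the 70 genes. A limma fit with 1 variance prior for all probe sets passed none of the 90 after Benjamini-Hochberg adjustment over all 27458 tested (lowest adjusted p among them 0.132), as it passed 0.0% of all probe sets. A limma fit whose variance prior follows the mean signal, called the intensity-trend fit, passed 3 of the 90, or 3.33%, against 4.45% of all probe sets. It passed 1 of the 90 as higher and 2 as lower, against 2.17% and 2.28% of all. "Rose" and "fell" are used below only of a probe set past an adjusted p of 0.05 in the intensity-trend fit. The share that passed is near that of the whole array.

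The promoters of the 3 genes are shown because they are the members that passed, and because BAHD1 is known to work with proteins that bind methylated CpG. Each window runs from upstream of the gene's start to just past it, from RefSeq (GRCh38.p14), 300 bases on the strand named, 5′ to 3′, with every CpG in capitals. The table holds 2 windows for SEMA3C, and the array does not show which start is used.
SLIT2, chr4:20251655-20251954, plus strand: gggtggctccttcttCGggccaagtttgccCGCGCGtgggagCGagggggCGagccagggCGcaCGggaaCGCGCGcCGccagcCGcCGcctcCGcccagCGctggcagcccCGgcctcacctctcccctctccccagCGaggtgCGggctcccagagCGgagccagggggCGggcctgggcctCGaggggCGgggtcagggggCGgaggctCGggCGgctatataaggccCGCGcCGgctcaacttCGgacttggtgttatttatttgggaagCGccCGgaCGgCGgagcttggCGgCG
SEMA3C, chr7:80919002-80919301, minus strand: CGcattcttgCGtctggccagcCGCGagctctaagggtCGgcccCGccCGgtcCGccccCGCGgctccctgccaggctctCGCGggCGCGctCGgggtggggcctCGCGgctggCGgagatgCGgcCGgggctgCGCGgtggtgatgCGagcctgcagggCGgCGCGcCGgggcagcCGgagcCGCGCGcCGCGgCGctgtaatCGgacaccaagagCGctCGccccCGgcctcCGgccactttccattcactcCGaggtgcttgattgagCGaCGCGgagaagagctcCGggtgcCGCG
SEMA3C, chr7:80922340-80922639, minus strand: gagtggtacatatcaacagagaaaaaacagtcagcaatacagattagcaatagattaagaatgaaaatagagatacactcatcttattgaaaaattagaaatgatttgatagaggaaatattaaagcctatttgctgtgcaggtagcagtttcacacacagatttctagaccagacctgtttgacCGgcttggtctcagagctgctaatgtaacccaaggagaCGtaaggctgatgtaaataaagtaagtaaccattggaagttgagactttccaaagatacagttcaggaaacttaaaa
EFNA2, chr19:1285623-1285922, plus strand: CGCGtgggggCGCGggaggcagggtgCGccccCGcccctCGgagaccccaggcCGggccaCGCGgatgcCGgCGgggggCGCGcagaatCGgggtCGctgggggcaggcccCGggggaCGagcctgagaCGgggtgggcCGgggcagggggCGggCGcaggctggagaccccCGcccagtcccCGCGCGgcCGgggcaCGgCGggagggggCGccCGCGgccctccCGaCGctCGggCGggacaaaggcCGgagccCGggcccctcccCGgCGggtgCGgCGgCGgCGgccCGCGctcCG
The SLIT2 window holds 36 CpG, more than 87.3% of the 35116 promoter windows in the table, whose median is 14. The EFNA2 window holds 47 (more than 97.6%), and the SEMA3C windows hold 46 (more than 97.1%) and 2 (more than 11.0%). CpG-dense windows thus stand at a gene that rose and at genes that fell, and nothing about methylation was measured.

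SLIT2 fell on 1 of its 3 tested probe sets, the brightest, where its signals were 962.5, 990.7 and 892.5 in BAHD1 siRNA arrays, against 1270.7, 1321.2 and 1367.0 in control siRNA arrays. Every BAHD1 siRNA array lay below every control siRNA array, at 71.9% of the control level. The log2 fold change was -0.48 (SE 0.07, adjusted p = 0.00536 in the intensity-trend fit, and adjusted p = 0.134 with 1 prior), and the exact two-sided permutation p was 0.1, the smallest that 3 against 3 arrays can give. It passed in the intensity-trend fit with any 1 array left out (log2 fold change -0.51 to -0.43). The 2 other SLIT2 probe sets were also lower but overlapped and did not pass. Their signals were 800.8, 860.9 and 808.8 in BAHD1 siRNA arrays, against 857.1, 969.4 and 1015.6 in control siRNA arrays, on one (log2 fold change -0.20, adjusted p = 0.154 in the intensity-trend fit). They were 435.4, 466.3 and 409.4 in BAHD1 siRNA arrays, against 416.2, 523.1 and 554.2 in control siRNA arrays, on the other (-0.18, adjusted p = 0.344). All 3 read the same gene and pointed the same way, with the differences between them not tested. SLIT2 also contains the miRNA gene MIR218-1 in the RefSeq table, and SLIT3 contains MIR218-2, which gives the same mature miR-218-5p. Its sequence is shown because it is encoded within the gene that fell, with the seed (bases 2 to 8) in capitals, but the array gave no reading of it.
hsa-miR-218-5p, chr4:20528299-20528319, plus strand: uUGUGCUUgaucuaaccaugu

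**Figure D1:**
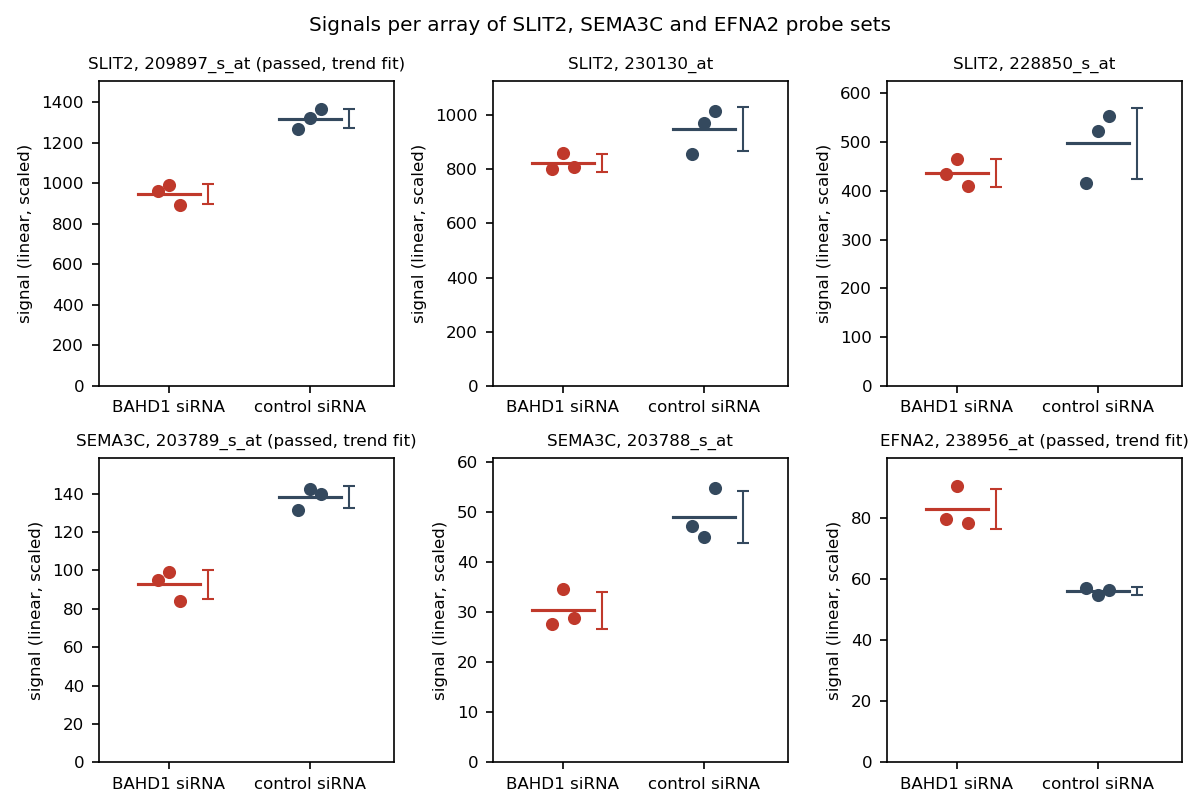
Signal (linear, scaled) of each array for the tested probe sets of SLIT2, SEMA3C and EFNA2, with BAHD1 siRNA arrays left of control siRNA arrays; bars are group means and whiskers 1 SD (n = 3). The groups do not overlap for the brightest probe set of SLIT2, both SEMA3C probe sets and EFNA2, and they overlap for the 2 other SLIT2 probe sets.

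SLIT2 was the only member of its family that passed. Of the 10 tested probe sets of SLIT and ROBO genes, 4 were higher and 6 lower, and the groups did not overlap in 1, which is 10.0% against 25.6% of all tested probe sets. SLIT1, a paralog of SLIT2, had signals of 50.6, 62.1 and 56.8 in BAHD1 siRNA arrays, against 53.5, 33.0 and 30.8 in control siRNA arrays, a log2 difference of 0.56 that overlapped (adjusted p = 0.271 with 1 prior). SLIT3 had 25.5, 29.7 and 20.3 in BAHD1 siRNA arrays, against 3.1, 29.0 and 11.3 in control siRNA arrays, a log2 difference of 1.17 (SE 0.69) with overlapping and widely spread control siRNA values. The differences between the SLIT genes were not tested against each other. Their receptor gene ROBO1 had 909.9, 916.5 and 886.4 in BAHD1 siRNA arrays, against 946.2, 888.4 and 968.8 in control siRNA arrays. Those groups overlapped, with a log2 difference of -0.05 (SE 0.08). ROBO2 had 43.4, 43.5 and 36.3 in BAHD1 siRNA arrays, against 42.4, 53.8 and 49.4 in control siRNA arrays, a log2 difference of -0.23, and its dimmer probe set had -0.85 (SE 0.47). Neither passed. ROBO3, an axon midline-crossing receptor gene, and the endothelial receptor gene ROBO4 had 0.13 and 0.21 and overlapped.

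SEMA3C encodes a secreted class 3 semaphorin known from mice for its part in dividing the cardiac outflow tract. On its brightest probe set its signals were 94.9, 99.0 and 84.1 in BAHD1 siRNA arrays, against 131.7, 142.6 and 140.0 in control siRNA arrays, 67.2% of the control level. All BAHD1 siRNA values were lower than all control siRNA values, and SEMA3C fell, with a log2 fold change of -0.57 (SE 0.12, adjusted p = 0.0214 in the intensity-trend fit, and 0.132 with 1 prior). Its second probe set had 27.7, 34.6 and 28.8 in BAHD1 siRNA arrays, against 47.1, 44.9 and 54.8 in control siRNA arrays. The groups again did not overlap, with a log2 difference of -0.67, which did not pass (adjusted p = 0.0774 in the intensity-trend fit). Both probe sets thus moved the same way by a like amount. The call on the first was lost without BAHD1 siRNA replicate 2 or 3 or control siRNA replicate 1 or 2 (adjusted p = 0.0579, 0.0868, 0.0545 and 0.0786), where the log2 fold change was -0.62, -0.51, -0.61 and -0.55.

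The other semaphorins did not pass in either fit. Of 25 tested semaphorin probe sets 16 were higher and 9 lower, and in 9 of the 25 the groups did not overlap, 36.0% against 25.6% of all tested probe sets. SEMA3A, the growth cone collapsing semaphorin that binds neuropilin-1, had signals of 32.4, 27.4 and 37.9 in BAHD1 siRNA arrays, against 42.5, 49.9 and 43.1 in control siRNA arrays. The groups did not overlap and the log2 difference was -0.47 (adjusted p = 0.198 with 1 prior, 0.215 in the intensity-trend fit). SEMA4F, a membrane-spanning semaphorin gene, pointed the other way on all 3 of its probe sets, at 0.37 to 0.48. Its brightest had 85.9, 94.8 and 95.8 in BAHD1 siRNA arrays, against 67.0, 71.4 and 59.1 in control siRNA arrays (adjusted p = 0.0711 in the intensity-trend fit), without overlap. Probe sets of this x type, which include 2 of the 3 for SEMA4F and those named for SEMA6B and SEMA3E, may read other transcripts as well. SEMA6B had 40.2, 31.5 and 39.9 in BAHD1 siRNA arrays, against 25.8, 14.7 and 23.1 in control siRNA arrays, a log2 difference of 0.81 (0.52 when 16 rather than 1 was added to the signal). SEMA4C, whose protein binds plexin-B2, had a difference of 0.08 on its brightest probe set and 0.66 on its other. The brightest read 318.9, 305.1 and 315.2 in BAHD1 siRNA arrays, against 314.6, 255.3 and 320.0 in control siRNA arrays. The dimmer read 65.1, 91.9 and 62.5 in BAHD1 siRNA arrays, against 47.2, 51.8 and 38.1 in control siRNA arrays, so that only the dimmer separated the groups (adjusted p = 0.073 in the intensity-trend fit). SEMA6A, which encodes a membrane semaphorin read by A-type plexins, ran from -0.30 to 0.10 over 4 probe sets. One of its dimmer probe sets, at 0.10, did not overlap between the groups. The remaining tested genes SEMA3E, SEMA3F, SEMA3G, SEMA4A, SEMA4B, SEMA4D, SEMA4G and SEMA6D lay between -0.12 and 0.48 on their brightest probe sets. Of these, SEMA3G alone had groups that did not overlap there.

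Plexins and neuropilins, the receptors of the semaphorins, did not pass in either fit. Of their 17 tested probe sets 12 were higher and 5 lower. PLXNA1, a plexin that signals for class 3 semaphorins bound to neuropilins, had 166.1, 163.3 and 156.1 in BAHD1 siRNA arrays, against 114.6, 143.3 and 137.3 in control siRNA arrays, a log2 difference of 0.30. PLXND1, a receptor for SEMA3E, had 84.3, 97.7 and 124.1 in BAHD1 siRNA arrays, against 77.4, 77.1 and 78.6 in control siRNA arrays, a log2 difference of 0.37. Neither pair of groups overlapped, and the BAHD1 siRNA arrays of PLXND1 spread far more than its control siRNA arrays. The second probe sets of these genes overlapped, at 0.08 and 0.24. PLXNB2, a receptor for class 4 semaphorins, had 339.5, 286.7 and 418.7 in BAHD1 siRNA arrays, against 246.6, 297.6 and 354.7 in control siRNA arrays, and PLXNA3 had 36.3, 46.7 and 31.0 in BAHD1 siRNA arrays, against 44.6, 24.2 and 31.3 in control siRNA arrays. Both differences, 0.21 and 0.21, were within the spread of the arrays. NRP1, the binding receptor of SEMA3A and a co-receptor for VEGF, had 172.8, 230.9 and 214.0 in BAHD1 siRNA arrays, against 216.0, 198.2 and 241.2 in control siRNA arrays (log2 difference -0.09, SE 0.14). PLXNA2 had 0.08 and overlapped. NRP2, which binds SEMA3F and SEMA3C, had 5 tested probe sets between -0.97 and 0.34, with 3 higher and 2 lower and the brightest at 0.02. The lowest of these had 13.0, 12.2 and 9.6 in BAHD1 siRNA arrays, against 34.8, 19.3 and 19.3 in control siRNA arrays, and was tested only because of its control siRNA signals. The dimmer probe set of PLXNC1, a receptor for SEMA7A, had 19.7, 22.1 and 22.4 in BAHD1 siRNA arrays, against 13.5, 11.3 and 8.2 in control siRNA arrays, and was tested only because of its BAHD1 siRNA signals. These last 2 were chosen after their values were seen, and their lack of overlap follows in part from the filter.

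EFNA2 encodes an ephrin of the A type, which sits on a lipid anchor and binds EphA receptors. Its only tested probe set had signals of 79.8, 90.5 and 78.4 in BAHD1 siRNA arrays, against 57.0, 54.7 and 56.5 in control siRNA arrays. All BAHD1 siRNA values were higher than all control siRNA values, and EFNA2 rose 1.47-fold, with a log2 fold change of 0.55 (SE 0.14, adjusted p = 0.0471 in the intensity-trend fit, and 0.132 with 1 prior). This call stood just inside the threshold. It was lost with each of the 6 arrays left out in turn, where the adjusted p was 0.0725, 0.176 and 0.121 without BAHD1 siRNA replicate 1, 2 and 3, and 0.104, 0.117 and 0.0737 without control siRNA replicate 1, 2 and 3. The log2 fold change kept between 0.49 and 0.59 in those fits. The call was also lost after quantile normalisation (adjusted p = 0.0618) and with array medians centred (adjusted p = 0.0543). It rests on that probe set alone. The other EFNA2 probe sets were too dim to be tested, with no signal above 20.0. Their log2 differences were -0.35 and -0.01, with overlapping groups, so they showed no rise.

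No other ephrin passed in either fit. Of 10 tested ephrin probe sets 8 were higher and 2 lower. EFNB3, a membrane-spanning ephrin known in mice as a midline barrier for spinal cord axons, had 132.7, 147.1 and 136.2 in BAHD1 siRNA arrays, against 110.5, 100.5 and 114.1 in control siRNA arrays. The groups did not overlap, with a log2 difference of 0.35 (adjusted p = 0.0979 in the intensity-trend fit). EFNB2, a marker of arterial endothelium that binds EPHB4, had 471.9, 418.1 and 425.6 in BAHD1 siRNA arrays, against 393.8, 389.7 and 423.9 in control siRNA arrays, and its dimmer probe set differed in sign (0.12 and -0.14). EFNA4 had 44.9, 51.2 and 67.8 in BAHD1 siRNA arrays, against 47.7, 52.6 and 33.9 in control siRNA arrays. EFNA5, known for its part in topographic maps of retinal axons, had 164.7, 152.2 and 131.3 in BAHD1 siRNA arrays, against 137.7, 169.8 and 167.5 in control siRNA arrays. Both genes overlapped, at log2 differences of 0.29 and -0.08, and the 3 probe sets of EFNA5 ran from -0.08 to 0.30, the last without overlap. EFNA1 and EFNA3 had 0.19 and 0.03.

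The Eph receptors, on which ephrins act, did not pass either. Of 19 tested probe sets 11 were higher and 8 lower. EPHA2, an EphA receptor gene expressed widely in epithelia, had 57.3, 56.9 and 48.8 in BAHD1 siRNA arrays, against 35.9, 32.5 and 41.0 in control siRNA arrays. The groups did not overlap and the log2 difference was 0.57 (adjusted p = 0.150 with 1 prior, 0.103 in the intensity-trend fit). EPHA4, which binds ephrins of both types, gave opposite readings. Its brightest probe set had 186.1, 195.5 and 179.2 in BAHD1 siRNA arrays, against 139.6, 147.7 and 158.9 in control siRNA arrays. Another had 74.1, 83.5 and 65.1 in BAHD1 siRNA arrays, against 86.8, 89.5 and 99.9 in control siRNA arrays. Neither pair of groups overlapped, at 0.33 on the first and -0.31 on the second, and the 2 further EPHA4 probe sets were at -0.21 and -0.14, so no direction can be given for the gene. EPHA3 had 200.6, 200.8 and 210.2 in BAHD1 siRNA arrays, against 172.7, 190.6 and 181.5 in control siRNA arrays, a small difference of 0.17, while its other probe set was at -0.16. EPHA7, known in mice from cortical and retinal mapping, was lower on all 3 of its probe sets, at -0.29 to -0.19. The brightest had 216.8, 182.6 and 199.9 in BAHD1 siRNA arrays, against 227.6, 215.5 and 295.1 in control siRNA arrays, and the groups overlapped on each. EPHB4, the venous partner of ephrin-B2, had 185.4, 148.3 and 189.4 in BAHD1 siRNA arrays, against 155.2, 133.6 and 147.9 in control siRNA arrays (0.25, adjusted p = 0.355 with 1 prior). The receptor and its ligand EFNB2 both overlapped between the groups. EPHA6, EPHA8, EPHA10, EPHB1 and EPHB3 lay between 0.07 and 0.69 on their brightest probe sets, all with overlap, and the dim second probe set of EPHA10 was at -1.57 (SE 0.75).

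Netrins and their UNC5 receptors did not pass. UNC5B, a repulsive netrin receptor, had 185.7, 195.1 and 240.7 in BAHD1 siRNA arrays, against 162.6, 169.0 and 159.6 in control siRNA arrays, a log2 difference of 0.33 without overlap (adjusted p = 0.114 in the intensity-trend fit). Its 2 other probe sets were at 0.29 and -0.37 and overlapped. NTN4, a laminin-related netrin of basement membranes, had 39.2, 42.1 and 56.6 in BAHD1 siRNA arrays, against 37.8, 28.8 and 38.6 in control siRNA arrays, a log2 difference of 0.37 (SE 0.18) in which the groups only just failed to overlap. NTN1, the founding attractant of commissural axons, had 56.6, 55.4 and 61.2 in BAHD1 siRNA arrays, against 65.9, 49.8 and 83.4 in control siRNA arrays (-0.17, SE 0.19). UNC5C had 43.7, 51.1 and 44.6 in BAHD1 siRNA arrays, against 41.6, 40.1 and 49.0 in control siRNA arrays, and its probe sets were at 0.09 and -0.32. Both overlapped. Of the genes that share letters with the UNC5 receptors alone, UNC50 had 576.3, 544.0 and 613.4 in BAHD1 siRNA arrays, against 476.3, 479.1 and 513.2 in control siRNA arrays (0.24, adjusted p = 0.0928 in the intensity-trend fit), without overlap, and UNC5CL had -0.28.

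**Figure D2:**
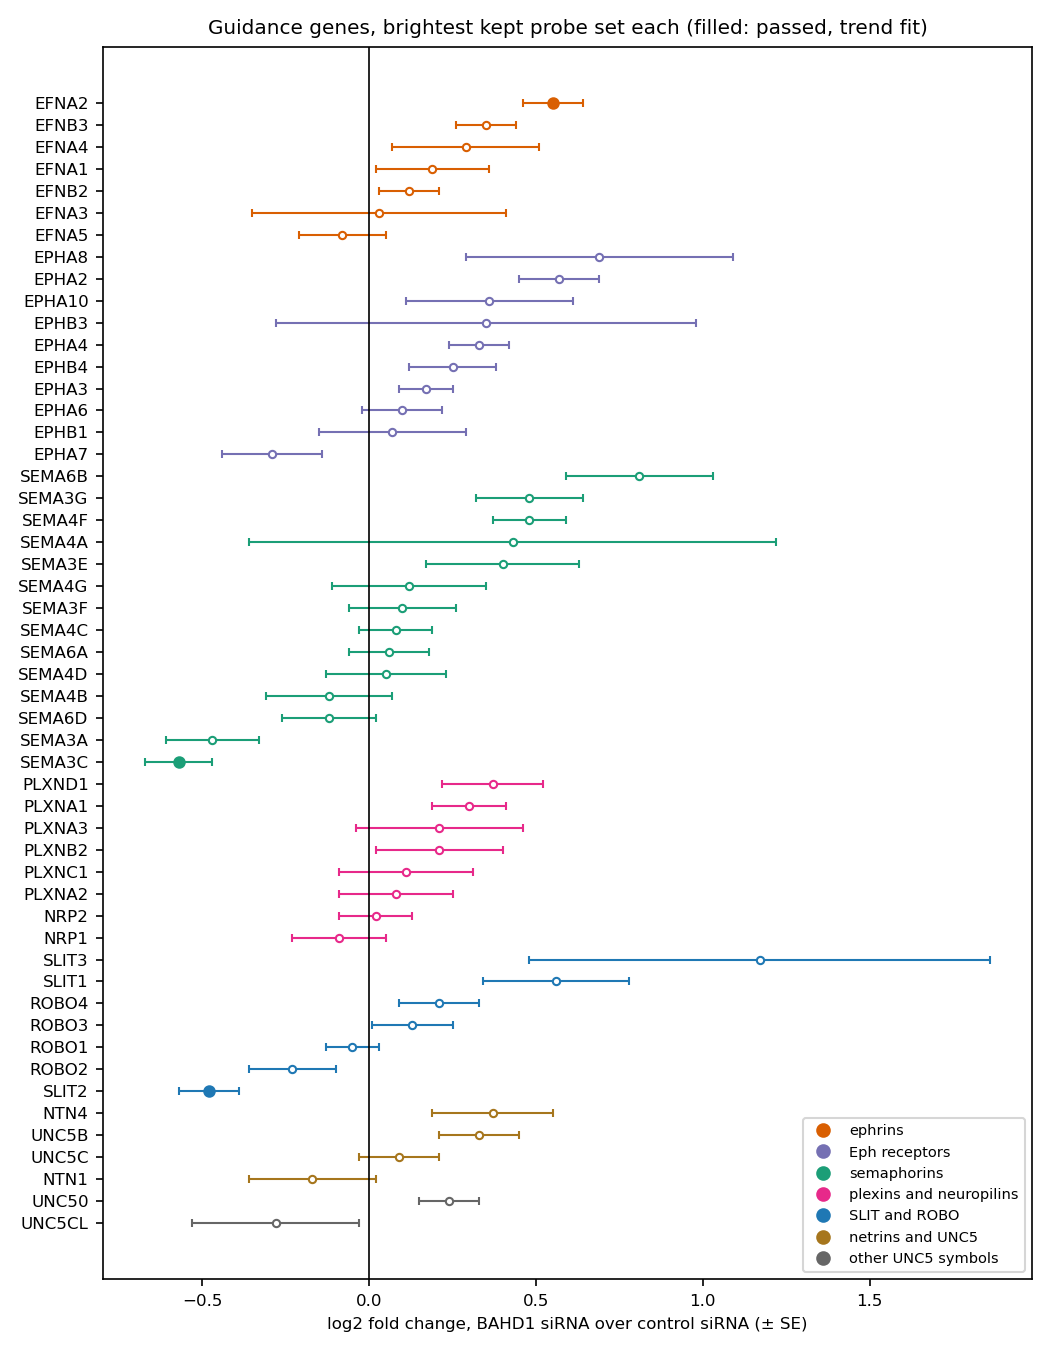
Log2 fold change of BAHD1 siRNA over control siRNA (x axis) with its SE from the fit with 1 prior, for the brightest tested probe set of each of the 52 measured genes, grouped by family; filled points passed in the intensity-trend fit. Most points lie right of 0, 40 of 52, and the 3 filled ones are EFNA2 above 0 and SEMA3C and SLIT2 below it.

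How far the set leaned upwards depended on how a gene was read. By its brightest probe set, 40 of the 52 measured genes were higher in BAHD1 siRNA arrays and 12 lower, 76.9% against 54.4% of all 12529 measured genes, and the median log2 fold change was 0.15, against 0.02 for all. By probe set, 56 of 90 were higher, 62.2% against 52.0% of all tested, with medians of 0.08 and 0.01. Over all 171 probe sets with no filter, 104 were higher and 67 lower, 60.8% against 54.6% of all. With the mean over a gene's probe sets the median was 0.10, and after quantile normalisation 37 of the 52 genes were higher, with a median of 0.12. By family and brightest probe set, genes were higher for 6 of 7 ephrins (5 after quantile normalisation), 9 of 10 Eph receptors (8), 10 of 14 semaphorins (10), 7 of 8 plexins and neuropilins (6), 4 of 7 SLIT and ROBO genes (4) and 3 of 4 netrins and UNC5 receptors (3). The medians of the families in that order were 0.19, 0.29, 0.09, 0.16, 0.13 and 0.21. By probe set the Eph receptors had a median of 0.07 and the SLIT and ROBO genes one of -0.11, so that the sign for SLIT and ROBO genes turned with the reading. Most of these probe sets were dim. Within the 4 signal classes of equal size, dimmest to brightest, 19 of 29, 22 of 37, 11 of 16 and 4 of 8 were higher, that is 65.5%, 59.5%, 68.8% and 50.0%, against 60.9%, 56.0%, 49.0% and 42.1% of all probe sets. These are descriptions of the list, and no test was made of it.

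**Figure D3:**
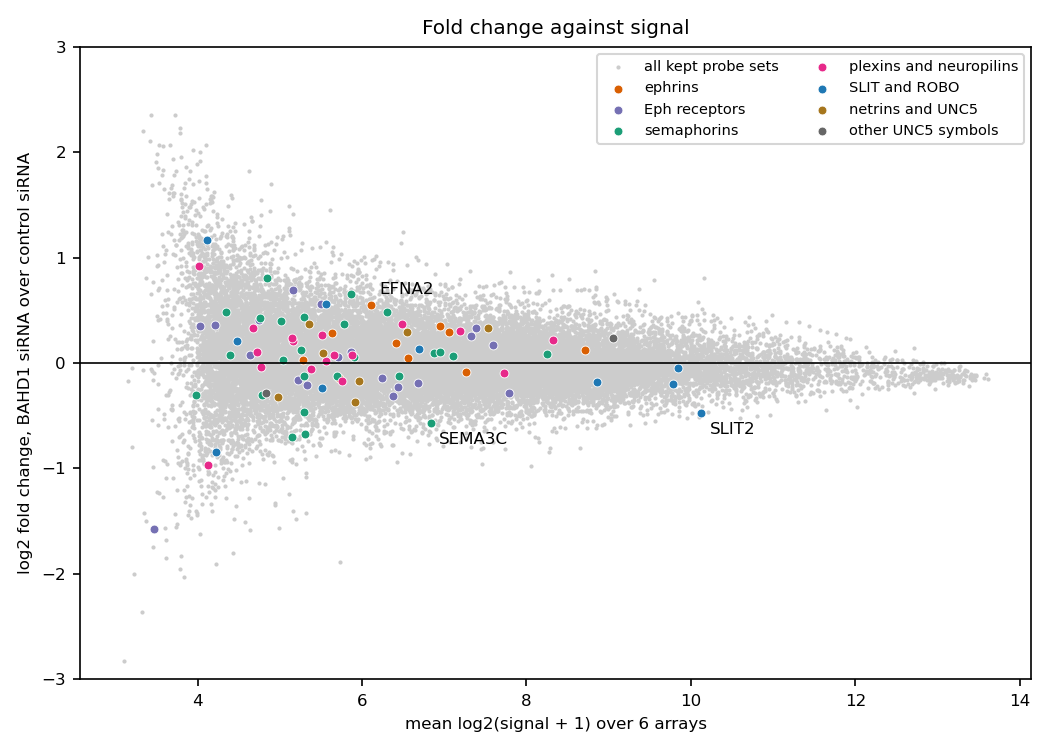
Log2 fold change of BAHD1 siRNA over control siRNA (y axis) against mean log2(signal + 1) over the 6 arrays (x axis), with all 27458 tested probe sets in grey and the 90 guidance probe sets coloured by family. The coloured points lie within the cloud of all probe sets, which widens at low signal, and the labelled SLIT2, SEMA3C and EFNA2 passed in the intensity-trend fit.

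The median size of the log2 fold change, without its sign, was 0.24 over the 90 probe sets, against 0.17 over all tested. In the fit with 1 prior, 22 of the 90 probe sets (16 higher, 6 lower) passed an unadjusted p of 0.05, 24.4% against 17.6% of all probe sets (9.78% higher and 7.86% lower). The groups did not overlap in 24 of the 90, 18 higher and 6 lower, or 26.7% against 25.6% of all (13.4% higher and 12.2% lower). Of those 24, the dimmer PLXNC1 probe set and the lowest NRP2 probe set were tested through the arrays of 1 group alone. Both are also among the 22 that passed an unadjusted p of 0.05, so that count too follows in part from the filter.

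Probe sets of the same gene often disagreed. Of 24 genes with several tested probe sets, 13 had all on the same side of 0 and 11 did not. The genes with all probe sets lower were SLIT2, SEMA3C, SEMA3A, EPHA7, ROBO2 and NRP1. Those with all higher were SEMA4F, SEMA4C, EPHA8, EPHB4, PLXNA1, PLXNC1 and PLXND1. For PLXNC1 this follows in part from the filter, since its dimmer probe set was tested only because of its BAHD1 siRNA signals. EPHA4, EPHA3, SEMA6A, UNC5B, UNC5C, EFNB2 and EFNA5 were among the 11 that disagreed. Probe sets of a gene share its RNA samples and are not replicates.

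**Figure D4:**
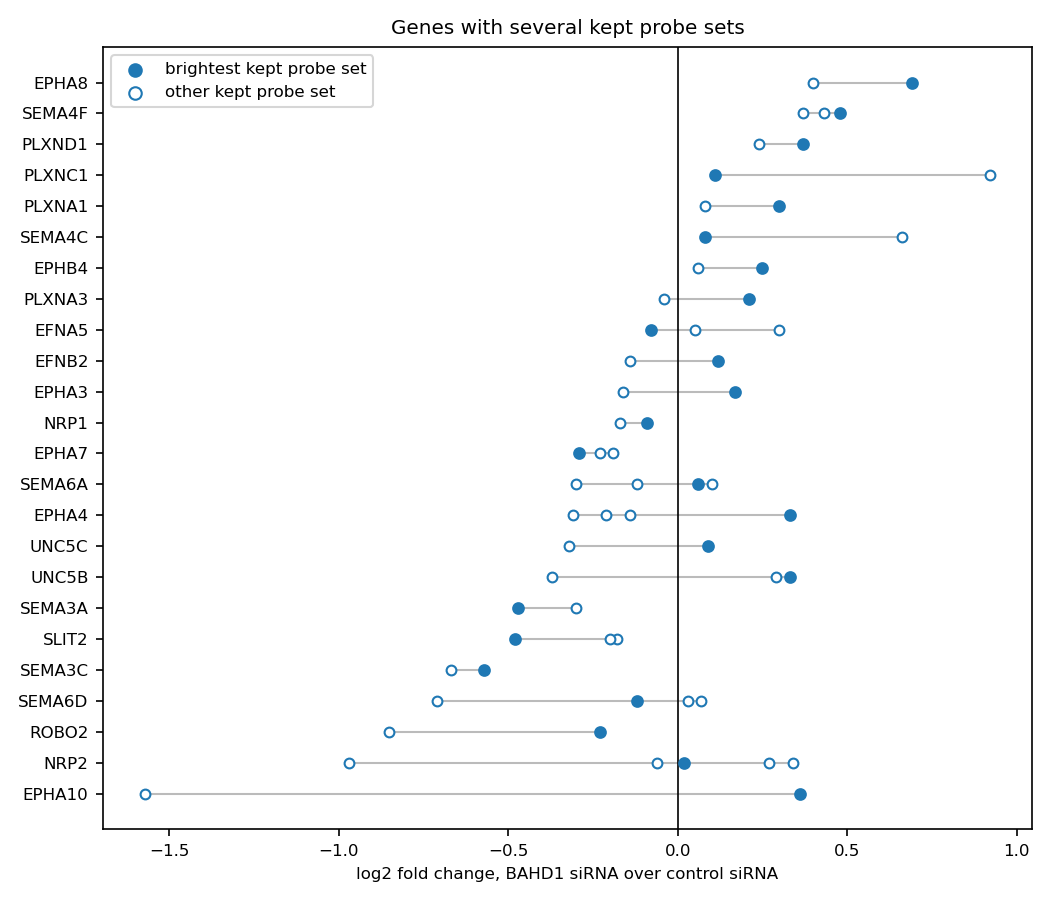
Log2 fold change of BAHD1 siRNA over control siRNA (x axis) for every tested probe set of the 24 genes with more than 1, joined by a line per gene; filled points are the brightest probe set. Lines that cross 0 mark the 11 genes whose probe sets differ in sign, with EPHA10 from -1.57 to 0.36 the widest.

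The 18 genes with no tested probe set were EFNB1, EPHA1, EPHA5, EPHB6, NTN3, NTN5, PLXNA4, PLXNB1, PLXNB3, SEMA3B, SEMA3D, SEMA5A, SEMA5B, SEMA6C, SEMA7A, UNC5A, UNC5D and UNC5B-AS1. Their signals reached 42.4 at most, on SEMA5B, and no probe set left out was above the filter in more than 2 arrays. Whether these genes are silent or below what the array reads cannot be told apart. Among them are EPHB6, whose kinase is inactive, and SEMA7A, the ligand of the PLXNC1 receptor, so that several ligands or receptors of measured partners had no usable reading.

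Genes that act with these receptors changed in both directions. Of 87 listed co-receptors, kinases, adaptors and cytoskeletal effectors, 65 were measured. In the intensity-trend fit 3 rose and 3 fell, or 9.23%, against 5.52% of all genes read by their brightest probe set (3.06% higher and 2.46% lower). In the fit with 1 prior 0 passed, as in 0.0% of all genes, and 15 of the 65 (10 higher, 5 lower) passed an unadjusted p of 0.05, against 18.1% of all genes. By direction 43 of the 65 were higher and 22 lower, with a median log2 fold change of 0.09, against 0.02 for all genes. The list was shortened after its values were seen, so these shares describe it and were not tested. DPYSL4, a collapsin response mediator gene of the semaphorin pathway, rose, with 102.8, 89.4 and 96.0 in BAHD1 siRNA arrays, against 61.6, 63.1 and 56.8 in control siRNA arrays (log2 fold change 0.66, adjusted p = 0.0221 in the intensity-trend fit). Its other probe set was at -0.07. LINGO1, a subunit of the Nogo receptor complex, and NCK2, an adaptor that binds phosphorylated Eph receptors and ephrin-B, rose by 0.53 and 0.34 (adjusted p = 0.0439 and 0.0418). FLRT3, a membrane protein that binds UNC5B and ROBO1, fell (log2 fold change -0.52), with its second probe set at -0.34. The kinase gene ABL2 and the phosphatase gene PTPN11 fell too, with -0.47 and -0.26 (adjusted p = 0.0421, 0.0382 and 0.0374 for FLRT3, ABL2 and PTPN11). The probe sets of ABL2 ran from -0.47 to 0.22 and those of PTPN11 from -0.76 to -0.05. The groups did not overlap in any of these 6 genes, as in 25.6% of all tested probe sets. The 6 were named because they passed in the same arrays, so this adds no support. The count of 6 was 2 without BAHD1 siRNA replicate 1, 0 without BAHD1 siRNA replicate 2 or 3 or control siRNA replicate 1, 1 without control siRNA replicate 2 and 3 without control siRNA replicate 3.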

How the data were processed

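Probe sets were named from the platform annotation. The authors deposited an unlogged intensity for each probe set of each array. GCOS and GCRMA are listed, without role or version, per the submitters' processing notes. The trimmed mean of each array is the same, as in GCOS scaling, and such signals are noisy when dim. Of 54675 probe sets, 62 controls were left out. Symbols of the 70 genes matched RefSeq by gene identifier, with 0 updates.

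Groups and replicate numbers come from sample titles. Values were tested as log2(signal + 1) in R 4.3.3 with limma 3.58.1, 3 against 3 arrays, with 1 variance prior as the main fit and a trended, robust prior (the intensity-trend fit) beside it, each adjusted by Benjamini-Hochberg over 27458 probe sets. Single values also had exact two-sided permutation tests. Precision is limited by the number of arrays. Both fits were tested on simulated data. The intensity-trend fit found more of the known changes there, but the noise was drawn from that same fit, so this cannot rank the fits. The intensity-trend fit also made a larger share of false calls than its threshold allows, and the fit with 1 prior did so by less. The simulated arrays held far fewer changes than the intensity-trend fit calls in these data, so they do not give its share of false calls here. The calls of the intensity-trend fit may be less certain than their adjusted p.

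The genes, lists and fits were chosen with earlier results of these data known, including that the fit with 1 prior passes no probe set. Named were BAHD1, members past the threshold in either fit, the 4 smallest p-values and 2 brightest genes per family, and pathway genes past the threshold. Others are named after their values were seen. Some genes of the pathway list were later left out and are not reported here.

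Alternatives were a replicate block, no filter, a stricter filter, quantile normalisation, centred medians, array weights, log2(signal + 16), the mean over probe sets and each array left out. Same-numbered arrays did not deviate together (r = 0.010, 0.010 and 0.024), so the numbers were not taken as pairs.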

Additional observations from a re-analysis of the deposited data

How the results depend on the processing

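The fit with 1 prior passed 0 of 90 probe sets, and 4 of the 26 left by a stricter filter (signal above 99.9 in at least 3 arrays), namely SLIT2, SEMA3C, EFNB3 and EPHA4. The same filter raised the count over all probe sets from 0 to 1147, so the gain was not particular to these genes. The change of prior itself moved the count among the 90 to 3. The intensity-trend count of 3 was 0 with 1 prior, 1 with no filter (SLIT2), and 1 to 2 with 1 array left out. Over all probe sets the intensity-trend count of 1221 was 398 with no filter and 177 to 1174 with 1 array left out. SLIT2 passed in the intensity-trend fit under every alternative that kept its prior (adjusted p = 0.00293 to 0.0293). SEMA3C was lost with no filter (adjusted p = 0.0519) and without 4 of the arrays. The median log2 fold change of the genes, 0.15, was 0.13 to 0.21 with 1 array left out and 0.10 with the mean over probe sets. The 6 pathway genes were 0 with 1 prior, 0 with no filter and 0 to 3 with 1 array left out. The replicate block, by a number the samples only share, left the intensity-trend count at 3, with SEMA4C in and EFNA2 out (adjusted p = 0.0566), the count with 1 prior at 0, the pathway count at 6, the median at 0.15 and BAHD1 at -0.40. Of 30 named probe sets, 25 kept their direction under all alternatives. With 1 array left out EFNA5 ran from -0.18 to 0.01, SEMA4C from -0.02 to 0.14, SEMA6A from -0.01 to 0.17, NRP1 from -0.18 to 0.03 and NTN1 from -0.36 to 0.01. Of the 90 probe sets, 29 and 37 lay in the dimmest and next dimmest of 4 signal classes of equal size.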

Other observations

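Transcripts that overlap guidance genes but fall outside the symbol rule gave no usable reading. The 8 probe sets of EPHA1-AS1, EPHA2-AS1, EPHA5-AS1, SLIT1-AS1, SLIT2-IT1, SLIT3-AS1 and of SEMA3B together with MIR6872 had signals of 0.1 to 32.3, none was bright enough to be tested, and the groups overlapped in each.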
